A study of Mus musculus with 15 samples.

Results

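Immunoglobulin variable segments (V segments) were followed through bulk RNA sequencing of mouse brain tumours treated with a checkpoint antibody, a histone deacetylase inhibitor, or both. The members were chosen by name and by measured level: all symbols of the expression table that start with Ighv (heavy chain), Igkv (kappa light chain) or Iglv (lambda light chain) and that reached 1 TPM (transcript abundance scaled to a fixed total per library) or more in at least 3 of the 15 libraries. Of 173 V segments listed, 99 met this rule: 32 of 78 Ighv, 64 of 92 Igkv and 3 of 3 Iglv. Because the level chose them, a segment that is high in 1 treatment group and absent elsewhere could enter through that group alone, and 77 of the 99 met the rule only with anti-PD1 or combination libraries counted, against 22 that met it without them. Counts and medians over the 99 are therefore descriptions, and no p-value is given for a sum or score over them.

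The tumours came from nestin-TVA mice, whose nestin-expressing cells carry the viral receptor TVA, after brain injection of a 1:1 mixture of chicken DF-1 cells that deliver R132H-mutant IDH and PDGFB. All groups share this IDH-mutant genotype, MRI on day 28, intraperitoneal treatment for 9 days and collection on day 37, and the ages of the mice are not given in the sources used here. Control mice (n = 3 libraries) received vehicle placebo daily, the anti-PD1 group (n = 4 libraries) 2 injections a week of 1 mg of antibody in 100 µl PBS, the vorinostat group (n = 4) 1 mg in 100 µl daily, and the combination group (n = 4) both agents. The antibody blocks the T cell receptor PD-1, and vorinostat inhibits histone deacetylases.

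A developing B cell joins 1 V segment to a joining segment (with a D segment between them in the heavy chain), and the joined segment is then transcribed with a constant gene. Each B cell clone so carries 1 joined V segment for the heavy and 1 for the light chain, and other clones can use the same segments. Plasma cells, which secrete antibody, hold large amounts of the transcribed RNA. The mix of V segments in a tissue reflects which B lineage clones lie in it and how much antibody RNA they make, and healthy brain tissue holds few such cells.

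Libraries held between 80.5 M and 160.1 M reads as recovered from the table, and 1 TPM on a segment with a span of 500 bases stood for 5.08 to 9.60 reads. The labels name low-grade glioma cells, and the glioma lineage genes Olig2, Pdgfra and Sox2 were present in every library, and so were neuron and blood genes. The summed level of 8 glioma lineage and astrocyte genes was 5419 to 7267 TPM in the controls, 1811 to 6433 with anti-PD1, 4469 to 12615 with vorinostat and 2129 to 7897 in the combination. In such bulk samples fewer cells of a type and less RNA per cell cannot be told apart. The labels do not say whether replicates are separate mice, so p-values measure only the spread between these samples. Combination library 4 stood apart in its group and held 107 reads over the 99 members against 2782 to 5792 in the other 3 combination libraries, and results that rest on it are given with and without it.

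The segments that carry the results below are shown by the end of the exon that codes for the variable domain (V exon), where the reading frame reaches the cysteine that closes the third framework region and where joining begins. Each sequence holds the last 60 coding bases of the exon, 5′ to 3′ on the strand of the gene, from GENCODE vM21 transcripts on GRCm38 (mm10). Capitals mark the motif TANTNNTGN (N is any base), which covers a tyrosine codon and the cysteine codon in most segments. The 4 heavy chain segments that passed the test for anti-PD1 against control have V exons at chr12:115067560-115067871, minus strand (Ighv8-5), chr12:113588267-113588570, minus strand (Ighv2-2), chr12:115507545-115507849, minus strand (Ighv1-64) and chr12:115158403-115158707, minus strand (Ighv1-53).
Ighv8-5: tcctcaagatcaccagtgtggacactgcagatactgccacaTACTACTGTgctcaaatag
Ighv2-2: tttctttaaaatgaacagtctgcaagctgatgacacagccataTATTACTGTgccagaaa
Ighv1-64: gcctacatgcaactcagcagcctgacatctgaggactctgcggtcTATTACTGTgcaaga
Ighv1-53: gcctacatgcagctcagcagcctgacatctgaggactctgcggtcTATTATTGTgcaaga

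The 8 kappa segments that passed the same test lie at chr6:68256572-68256869, plus strand (Igkv14-111), chr6:70572921-70573230, plus strand (Igkv3-10), chr6:70117061-70117376, minus strand (Igkv8-30), chr6:69438218-69438520, minus strand (Igkv4-59), chr6:70260409-70260706, minus strand (Igkv6-23), chr6:69814631-69814928, minus strand (Igkv12-44), chr6:69575975-69576277, minus strand (Igkv4-57) and chr6:67942074-67942371, minus strand (Igkv9-124). Igkv6-17, which passed in the averaged anti-PD1 effect, lies at chr6:70371696-70371993, plus strand. They are shown to let the segment-specific bases after the motif be compared.
Igkv14-111: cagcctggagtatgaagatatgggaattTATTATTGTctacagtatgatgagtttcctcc
Igkv3-10: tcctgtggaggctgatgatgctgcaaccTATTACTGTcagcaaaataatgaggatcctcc
Igkv8-30: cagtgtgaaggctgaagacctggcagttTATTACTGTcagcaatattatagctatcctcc
Igkv4-59: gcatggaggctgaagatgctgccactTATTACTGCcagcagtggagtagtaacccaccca
Igkv6-23: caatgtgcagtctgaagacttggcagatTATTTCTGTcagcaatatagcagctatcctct
Igkv12-44: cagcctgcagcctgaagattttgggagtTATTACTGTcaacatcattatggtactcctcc
Igkv4-57: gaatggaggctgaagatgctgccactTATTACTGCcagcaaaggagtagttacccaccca
Igkv9-124: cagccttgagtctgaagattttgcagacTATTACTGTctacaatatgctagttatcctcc
Igkv6-17: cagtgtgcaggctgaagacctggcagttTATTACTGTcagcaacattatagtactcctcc

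In a further set of 5 segments, 3 of 4 combination libraries held similar levels. Their V exons lie at chr12:115757984-115758288, minus strand (Ighv1-72), chr12:113948282-113948588, minus strand (Ighv4-1), chr12:115603940-115604244, minus strand (Ighv1-67), chr6:70215660-70215957, plus strand (Igkv6-25) and chr6:68519180-68519477, plus strand (Igkv14-100).
Ighv1-72: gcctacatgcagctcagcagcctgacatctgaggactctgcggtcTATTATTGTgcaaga
Ighv4-1: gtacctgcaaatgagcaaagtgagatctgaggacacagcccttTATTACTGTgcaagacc
Ighv1-67: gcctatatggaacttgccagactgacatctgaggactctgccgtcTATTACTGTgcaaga
Igkv6-25: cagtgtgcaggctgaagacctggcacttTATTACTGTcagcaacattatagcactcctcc
Igkv14-100: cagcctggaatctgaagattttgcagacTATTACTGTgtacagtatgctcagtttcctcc

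The motif stood on the coding strand in the last 60 bases of 94 of 97 members with a coding sequence (96.9%) and of 154 of 160 listed segments with one (96.3%). On the other strand it occurred in 20 of those 160. The match is a description of the letters only.

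The summed level of the 99 segments was highest, on average, with the checkpoint antibody alone. In library order, it was 5.41, 145 and 26.8 TPM in the controls and 603, 1078, 379 and 293 TPM with anti-PD1. It was 61.4, 103, 109 and 134 TPM with vorinostat and 814, 771, 399 and 15.5 TPM in the combination. Each anti-PD1 library exceeded every control and every vorinostat library, vorinostat overlapped the controls through control library 2, and the combination held 3 high libraries and 1 low one. Group means were 58.9 ± 74.9 (SD, n = 3) TPM for control, 588 ± 352 (SD, n = 4) for anti-PD1, 102 ± 30.2 (SD, n = 4) for vorinostat and 499.9 ± 373 (SD, n = 4) for the combination. Without combination library 4 the combination mean was 661 ± 228 TPM (SD, n = 3), and without control library 2 the control mean was 16.1 ± 15.1 TPM (SD, n = 2).

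On the log2(TPM + 1) scale the summed level differed from control by 4.13 with anti-PD1, by 1.74 with vorinostat and by 3.10 in the combination. Leaving out 1 library at a time moved these differences between 3.03 and 5.28, between 0.64 and 2.89, and between 2.00 and 4.41. The vorinostat difference was the closest to the spread, with control library 2 alone at 46.5 TPM of Igkv3-7 and 24.2 TPM of Igkv10-96.

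**Figure D1:**
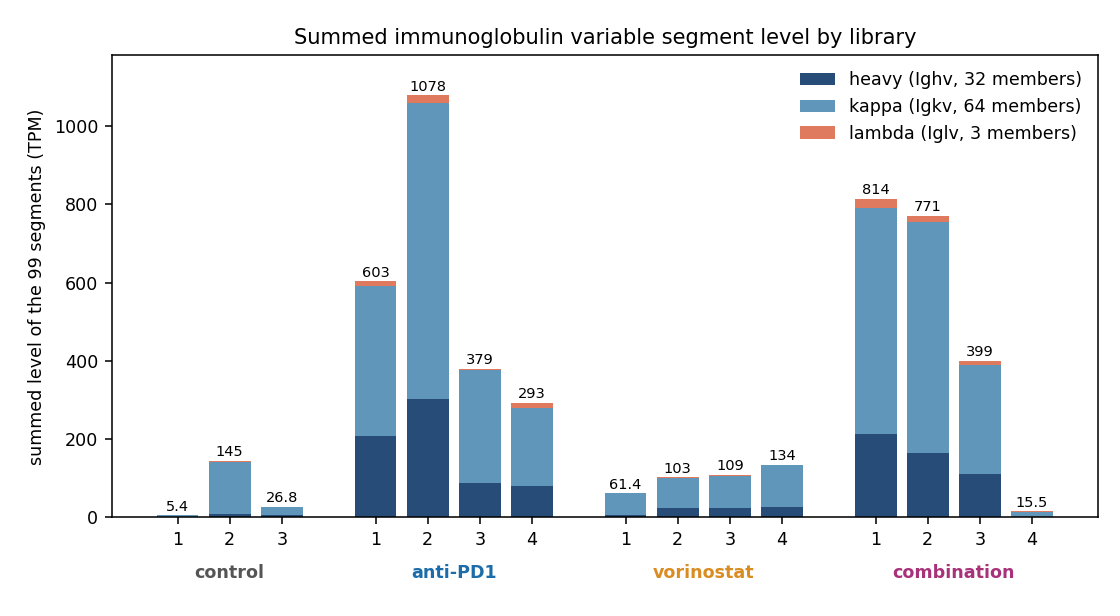
Summed level (TPM) of the 99 immunoglobulin V segments in each of the 15 libraries, stacked by heavy, kappa and lambda segments, with the total printed above each bar and replicate numbers under it. All 4 anti-PD1 libraries (293 to 1078 TPM) stand above every control (5.41 to 145 TPM), and combination library 4 (15.5 TPM) stands below the other 3 combination libraries.

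Light chain segments held most of the V level in every library. Ighv segments made up 0, 6.38 and 18.6% of the summed level in the controls and 34.5, 28.1, 22.9 and 27.7% with anti-PD1. They made up 9.93, 24.1, 22.3 and 19.3% with vorinostat and 26.1, 21.5, 27.8 and 3.53% in the combination. Anti-PD1 libraries thus lay above all controls in this share, while the vorinostat and combination ranges overlapped both. Control library 1 held no Ighv read among 34 V reads, and combination library 4 held 0.548 TPM of Ighv1-69 as its heavy chain signal.

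Lambda segments were a small share of the light chain level, as is typical of laboratory mice, at 0 to 6.39% over the 15 libraries. Iglv1 was the most common of the 3, at 2.3, 8.52, 1.76 and 1.45 TPM with anti-PD1 and 12.7, 6.91, 9.92 and 0.657 TPM in the combination, against 0, 1.88 and 0.323 TPM in the controls. Iglv3 was at 0 in 11 libraries and at 9.21 and 9.52 TPM in anti-PD1 libraries 1 and 2 and 10.2 and 9.15 TPM in combination libraries 1 and 2. Iglv2 reached 12.1 TPM in anti-PD1 library 4 and no more than 1.76 TPM elsewhere. None of the 3 passed the test in any comparison with all libraries. Without combination library 4, Iglv1 passed in the anti-PD1 effect averaged over both vorinostat states, at 1.88 (SE 0.37, adjusted p = 0.0376) by limma.

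Anti-PD1 against control asked what the checkpoint antibody did alone. By limma on log2(TPM + 1), with Benjamini-Hochberg adjustment over all 19390 genes tested, 12 of the 99 segments rose and 0 fell. Over all genes tested 1.77% were called higher, 3.52% lower and 5.29% in either direction. The 12 comprised 4 heavy chain and 8 kappa segments, spread over 10 V families (Ighv1, Ighv2, Ighv8, Igkv3, Igkv4, Igkv6, Igkv8, Igkv9, Igkv12 and Igkv14). The median fitted change over the 99 was 1.56, beside -0.14 over all genes tested.

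Ighv8-5 changed most, among the 12, on the fitted scale. It held 0, 0 and 0 TPM in the controls and 40.2, 32.9, 10.2 and 5.35 TPM with anti-PD1. Every anti-PD1 library lay above the controls, where 0 reads were present, and the ratio of mean TPM was at least 137.5-fold against a floor of 3 reads over the 3 controls together. Its fitted change was 4.15 (SE 0.94, adjusted p = 0.0354) by limma. The segment was at 0, 1.44, 0 and 1.84 TPM with vorinostat and 8.16, 14.4, 0 and 0 TPM in the combination, where libraries 3 and 4 lacked it.

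Ighv2-2, of another heavy chain family, held 0, 0 and 0 TPM in the controls and 14.5, 13.7, 2.73 and 9.87 TPM with anti-PD1. Its mean was at least 62.3-fold higher and its fitted change was 3.29 (SE 0.73, adjusted p = 0.035) by limma. It was also read in 3 of 4 vorinostat libraries, at 0, 4.56, 3.2 and 7.64 TPM, so that its anti-PD1 and vorinostat values overlapped. Ighv1-64 was at 8.01, 13.1, 2.44 and 5.41 TPM with anti-PD1 and at 0 in all controls, at least 49.4-fold higher, with a fitted change of 2.86 (SE 0.56, adjusted p = 0.0267) by limma. Ighv1-53 had the smallest adjusted p of the 12. It was at 3.65, 4.11, 1.18 and 4.26 TPM with anti-PD1 and at 0 in all controls and all vorinostat libraries, at least 20.01-fold higher than control, with a fitted change of 2.02 (SE 0.36, adjusted p = 0.0206) by limma. In the combination it was read in library 1 alone, at 1.87 TPM. Ighv1-53 so met the rule of 3 libraries only through the anti-PD1 group, a choice that favours a call as higher there.

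Among the kappa segments, Igkv14-111 held 0, 0 and 0.433 TPM in the controls and 8.69, 23, 17 and 5.84 TPM with anti-PD1. Groups did not overlap, the ratio of means was 94.4-fold, and the fitted change was 3.53 (SE 0.77, adjusted p = 0.0327) by limma. The control side of this ratio rests on 4 reads in control library 3 alone, so its size is uncertain. Vorinostat libraries also lay above all controls for this segment, at 0.747, 1.16, 2.32 and 2.92 TPM. Igkv8-30 was the most widely read of the 12, at 1 TPM or more in 12 of 15 libraries, with 0.664, 1.92 and 0.465 TPM in the controls and 13.9, 37.3, 3.49 and 9.57 TPM with anti-PD1. Its ratio of means was 15.8-fold and its fitted change 2.74 (SE 0.71, adjusted p = 0.0464) by limma.

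Igkv3-10 held 0, 1.52 and 0 TPM in the controls and 15.1, 29.1, 4.55 and 4.55 TPM with anti-PD1, a ratio of 26.2-fold. Igkv6-23 held 0.51, 1.51 and 0.381 and 9.34, 21, 9.48 and 4.5 TPM in the same groups, a ratio of 13.8-fold. Igkv12-44 held 0, 0 and 0.398 and 7.44, 4.78, 7.95 and 3.19 TPM, a ratio of 44.1-fold that rests on 4 reads in control library 3 alone. In all 3 every anti-PD1 library lay above every control, and their fitted changes by limma were 3.02 (adjusted p = 0.0434), 2.62 (0.026) and 2.55 (0.0403).

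The remaining 3 kappa segments had between 1 and 3 reads over the controls, so no ratio is given. Igkv4-59 was at 4.64, 13.8, 1.73 and 8.62 TPM with anti-PD1, with a fitted change of 2.69 (SE 0.63, adjusted p = 0.038) by limma. Igkv4-57 was at 5.12, 5.84, 8.25 and 1.67 TPM, with 2.38 (SE 0.46, adjusted p = 0.026), and Igkv9-124 at 4.37, 7.62, 4.01 and 1.5 TPM, with 2.15 (SE 0.41, adjusted p = 0.0254). Their control libraries held at most 0.193, 0.297 and 0.355 TPM.

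**Figure D2:**
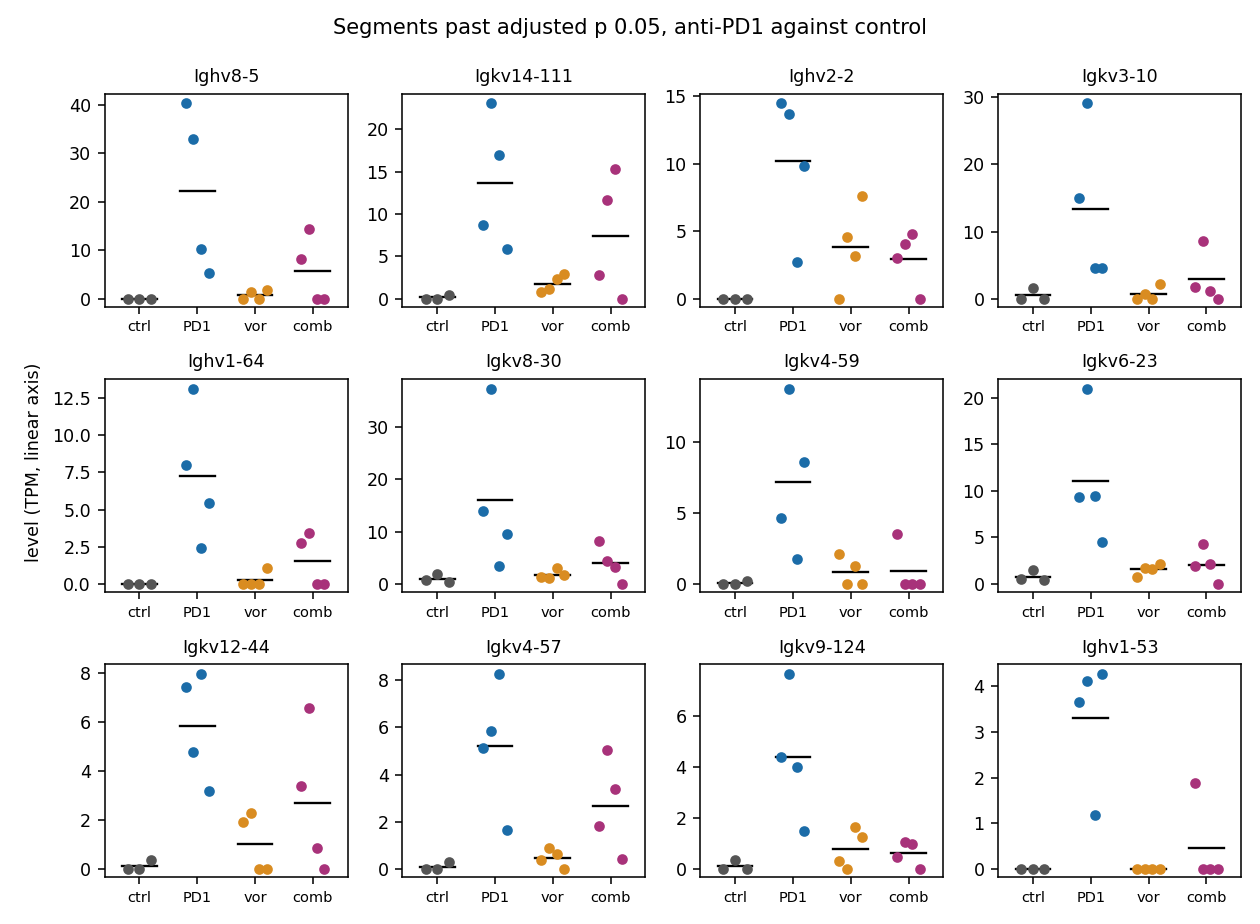
Level (TPM, linear axis) of the 12 segments that passed limma's adjusted p of 0.05 in anti-PD1 against control, with 1 point per library in control (ctrl), anti-PD1 (PD1), vorinostat (vor) and combination (comb), and a bar at each group mean. In every panel the 4 anti-PD1 points lie above the 3 control points, and combination library 4 is at 0 in every panel except Igkv4-57 (0.453 TPM).

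A plain look at overlap gave a longer list. In 20 of the 99 segments every anti-PD1 library lay above every control, beside 8.26% of all genes tested. These were the 12 above with Ighv1-52, Ighv9-1, Igkv1-117, Igkv6-15, Igkv6-17, Igkv6-32, Igkv12-46 and Igkv19-93. In 14 of the 99 every anti-PD1 library lay above every vorinostat library, beside 3.95% of all genes tested. Among the 12, 9 were also in that list, and the exceptions were Ighv2-2, Igkv4-59 and Igkv9-124.

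The count of 12 depended on single libraries. It was 0 without control library 1, 2 or 3, when the calls over all genes fell from 1026 to 0, 2 and 11. It was also 0 without anti-PD1 library 2, when 72 genes were called in all. It was 2 without anti-PD1 library 1, beside 0.375% of all genes called higher in that fit, and 6 without anti-PD1 library 4, beside 0.203%. Without anti-PD1 library 3 it was 29, beside 5.55% of all genes called higher, and calls over all genes in either direction went from 1026 to 4982. Of the other groups' libraries, which enter through the shared spread, leaving out vorinostat library 2 gave 6, beside 0.683% of all genes called higher, and leaving out combination library 1 gave 8, beside 0.72%. Direction stayed positive for all 12 in these fits, and unadjusted p was under 0.05 for 40 of the 99, all higher, beside 9.06% of all genes tested that were higher and 34.2% that differed in either direction at this threshold.

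Other tissue genes moved with the same groups. The mean log2 level of 15 neuron genes was 5.43, 5.11 and 4.90 in the controls and 6.19, 6.56, 5.58 and 6.01 with anti-PD1, and 3 of the 15 (Gad1, Gad2 and Grin1) rose. The mean of 6 cell cycle genes was 5.54, 5.23 and 5.82 in the controls and 4.21, 2.95, 4.50 and 4.06 with anti-PD1, with 0 of 6 called. With the neuron mean as a covariate, an alternative chosen after seeing the data, 0 of the 99 segments passed and 24 genes were called in all. The median change over the 99 was then 1.04, beside -0.05 over all genes tested, and 89 of the 99 changes were positive. Unadjusted p by limma was under 0.05 for 17 of the 99, all higher, beside 2688 of 19390 genes in either direction. Of 7 genes of meninges and choroid plexus, 6 were tested and 3 fell (Lum, Dcn and Col3a1). The part of these tissue differences in the V segment result was not tested further.

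The averaged anti-PD1 effect, the mean of anti-PD1 against control and of combination against vorinostat, asked what the antibody did over both backgrounds. By limma 2 of 99 segments rose and 0 fell, beside 0.237% of all genes called higher and 0.469% in either direction. Igkv6-17 was at 0, 0 and 0.469 TPM in the controls, 21.9, 11.5, 3.83 and 3.32 with anti-PD1, 0, 1.0, 0 and 1.33 with vorinostat and 21.9, 46.1, 7.53 and 1.86 TPM in the combination. All 8 libraries with the antibody lay above all 7 without it, combination library 4 included, and the averaged change was 3.03 (SE 0.55, adjusted p = 0.0334) by limma. Igkv4-57 was at 0.41, 0.907, 0.662 and 0 TPM with vorinostat and 1.82, 5.05, 3.39 and 0.453 TPM in the combination, where library 4 fell within the vorinostat range. Its averaged change was 1.77 (SE 0.31, adjusted p = 0.0331) by limma.

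This count also moved with the libraries used. It was 23 higher without combination library 4, beside 0.768% of all genes called higher in that fit, and 11 without anti-PD1 library 3, beside 1.11%. It was 5 without anti-PD1 library 4, beside 0.125% of all genes called higher, and 4 without vorinostat library 4, beside 0.794%. Without anti-PD1 library 1 it was 3, beside 0.411%, and without combination library 1 it was 1, beside 0.176%. It was 0 without any of the other 9 libraries (control 1, 2 and 3, anti-PD1 2, vorinostat 1, 2 and 3, and combination 2 and 3). Unadjusted p was under 0.05 for 51 of the 99, all higher, beside 7.72% of all genes higher and 22.1% in either direction. The median averaged change over the 99 was 1.2, beside -0.05 over all genes tested.

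Vorinostat against control asked what the deacetylase inhibitor did alone. By limma 0 of 99 segments passed, beside 0.00516% of all genes called. Unadjusted p was under 0.05 for 3 segments, all higher, beside 1.1% of all genes higher and 2.52% in either direction, and voom on recovered reads also called 0. The median change over the 99 was 0.23, beside -0.05 over all genes. Every vorinostat library lay above every control in 4 segments (Igkv3-2, Igkv14-111, Igkv15-103 and Igkv9-120), beside 1.34% of all genes.

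The 3 segments with unadjusted p under 0.05 were Ighv2-2, Igkv12-46 and Igkv3-2. Ighv2-2, with values given above, had a fitted change of 1.91 (SE 0.73, adjusted p = 1) by limma. Igkv12-46 was at 0 in all controls and at 8.19, 0, 4.18 and 11.7 TPM with vorinostat, with 2.31 (SE 0.89, adjusted p = 1). Neither separated all vorinostat libraries from the controls, while Igkv3-2 did. It was at 0 in all 3 controls and at 7.89, 4.37, 6.53 and 9.08 TPM with vorinostat, at least 60.4-fold higher. Its fitted change of 2.96 (SE 1.35, adjusted p = 1) by limma did not pass, and the segment varied in other groups from 0 to 57.3 TPM. With only the vorinostat and control libraries in the fit it was called, at 2.96 (SE 0.22, adjusted p = 0.0212), the only gene called higher in that fit (0.00516% of genes).

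Combination against control asked what both agents did together. By limma 0 of 99 segments passed, beside 0.0206% of all genes called. Unadjusted p was under 0.05 for 25, all higher, beside 3.52% of all genes higher and 5.76% in either direction, and voom called 0. The median change over the 99 was 1.03, beside -0.03 over all genes. Every combination library lay above every control in 4 segments (Igkv12-46, Igkv2-137, Igkv4-57 and Igkv6-17), beside 3.56% of all genes. Igkv12-46 was at 0 in all controls and at 16.8, 34.6, 8.83 and 6.67 TPM in the combination, with a fitted change of 3.89 (SE 0.89, adjusted p = 0.239) by limma. With the replicate number as a block Igkv4-57 alone passed, at 1.88 (SE 0.23, adjusted p = 0.0255) by limma, beside 0.0928% of all genes called higher. Libraries of the same number did not all deviate together in these groups, with correlations of -0.025, 0.001 and 0.338, so this call rests on an unshown pairing.

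The 5 segments shown above as a further set were high in combination libraries 1, 2 and 3 and at 0 in library 4. Ighv1-72 was at 22.5, 22.8, 21.1 and 0 TPM in the combination, at 0 in all control and vorinostat libraries, and at 0, 10.5, 0 and 0 TPM with anti-PD1. Ighv4-1 was at 10.3, 10.1, 8.12 and 0 TPM in the combination and, elsewhere, at 2.2 TPM in anti-PD1 library 2 alone. Igkv6-25 was at 17.5, 14.3, 24.4 and 0 TPM in the combination and no higher than 2.46 TPM elsewhere. The levels in the 3 high libraries lay close together and above every library of the other groups.

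The same held for Igkv14-100, at 6.97, 8.87, 7.48 and 0 TPM in the combination and 0, 2.95, 0 and 0 TPM with anti-PD1, and for Ighv1-67, at 3.55, 4.95, 4.08 and 0 TPM in the combination and no higher than 0.909 TPM elsewhere. With all libraries none of the 5 passed in combination against control, with adjusted p between 0.389 and 0.497 by limma. Without combination library 4 the count went from 0 to 5, these 5, all higher, beside 0.0623% of all genes called higher in that fit. The fitted changes were then 4.53 (SE 0.71, adjusted p = 0.0458) for Ighv1-72, 4.15 (SE 0.38, adjusted p = 0.000888) for Igkv6-25 and 3.39 (SE 0.36, adjusted p = 0.00225) for Ighv4-1. Igkv14-100 changed by 3.13 (SE 0.41, adjusted p = 0.0133) and Ighv1-67 by 2.37 (SE 0.26, adjusted p = 0.00317). These segments were singled out after their values were seen, and a segment present in 3 libraries of 1 group enters the 99 by that alone.

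**Figure D3:**
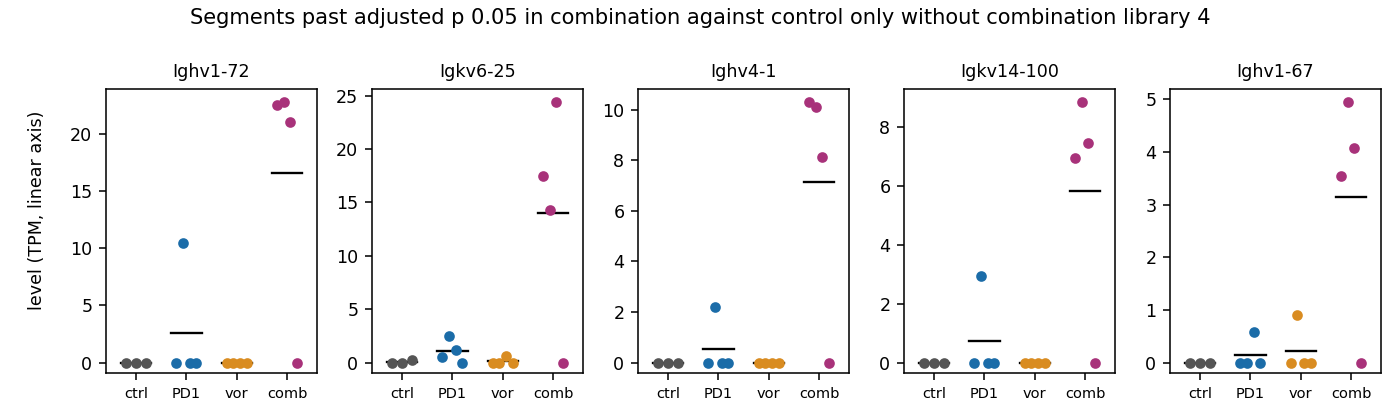
Level (TPM, linear axis) of the 5 segments that passed limma's adjusted p of 0.05 in combination against control only when combination library 4 was left out, with 1 point per library in each group and a bar at the group mean. Libraries 1 to 3 of the combination lie above every other library in each panel, and combination library 4 is at 0.

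Combination against anti-PD1 asked what adding vorinostat to the antibody did. By limma 0 of 99 segments passed, beside 0.0155% of all genes called, while unadjusted p was under 0.05 for 26, of which 6 were higher, beside 17.7% of all genes higher and 23.5% in either direction, and voom called 0. The median change over the 99 was -0.51, with 67 of the 99 negative, beside a median of 0.13 over all genes tested. In the anti-PD1 and combination groups same-number libraries had correlations of 0.203, 0.638, 0.426 and 0.29. Libraries of different number were not compared, so a pairing is assumed and not shown. With the number as a block 1 segment passed, Igkv6-23, beside 0.139% of all genes called lower. It was lower by -2.02 (SE 0.35, adjusted p = 0.0428) on the log2 scale by limma, a call that rests on that assumption. Igkv6-23 was at 9.34, 21, 9.48 and 4.5 TPM with anti-PD1 and 1.89, 4.32, 2.12 and 0 TPM in the combination, with no overlap. Without combination library 4, Igkv6-25, Ighv4-1, Ighv1-67 and Igkv14-100 passed as higher, with changes of 3.39, 2.97, 2.20 and 2.63, beside 0.0363% of all genes called higher.

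Other libraries moved the count in the opposite direction. Without anti-PD1 library 3, 7 segments passed as lower in the combination (Ighv1-50, Ighv1-53, Ighv1-64, Igkv3-1, Igkv4-53, Igkv4-59 and Igkv14-130), beside 0.72% of all genes called lower in that fit. Without anti-PD1 library 4 Ighv1-26 passed, and without combination library 1 Ighv1-53 passed, both lower. Each was the only gene called lower in its fit, of 19258 and 19302 tested. Ighv1-26, Ighv1-50, Ighv1-53, Igkv3-1, Igkv4-53 and Igkv14-130 met the rule of 3 libraries only with anti-PD1 libraries counted. That choice favours calls as lower in the combination. Ighv1-26 was at 34.4, 35, 31.2 and 0 TPM with anti-PD1 and 0, 5.44, 0 and 0 TPM in the combination, and at 0 in all control and vorinostat libraries.

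The interaction, which asks whether the antibody's effect differed with vorinostat present, passed for 0 of 99 segments by limma, beside 0.0103% of all genes, with a smallest adjusted p of 0.231. Unadjusted p was under 0.05 for 16, of which 1 was higher, beside 12.4% of all genes higher and 16.4% in either direction, and voom called 0. The median interaction over the 99 was -0.88, with 74 of the 99 negative, beside a median of 0.18 over all genes tested. The comparisons with control share the 3 control libraries, so their values stand side by side and are not independent.

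Segment diversity was lowest in the 2 libraries with fewest V reads, control library 1 and combination library 4. Members at 1 TPM or more numbered 1, 28 and 6 in the controls and 70, 94, 48 and 55 with anti-PD1. They numbered 16, 32, 28 and 37 with vorinostat and 74, 70, 56 and 3 in the combination. The effective number of segments, the exponential of the Shannon entropy of their TPM shares, equals the number of segments that would give the same entropy if all were equally abundant. It was 6.74, 14.5 and 28.7 in the controls and 49.3, 64.7, 31.7 and 44.3 with anti-PD1, which did not overlap. It was 18.9, 33.7, 24.1 and 33.9 with vorinostat and 40.6, 41.4, 39.9 and 7.06 in the combination.

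Group means of the effective number were 16.7 ± 11.1 (SD, n = 3) for control, 47.5 ± 13.6 (SD, n = 4) for anti-PD1, 27.6 ± 7.41 (SD, n = 4) for vorinostat and 32.2 ± 16.8 (SD, n = 4) for the combination. Without combination library 4 the combination stood at 40.6 ± 0.76 (SD, n = 3). Reads over the members ranged from 34 in control library 1 to 6901 in anti-PD1 library 2, and a library with few reads cannot show many segments. Each library was therefore also thinned to 34 V reads, the number in control library 1. The mean number of segments with a read was then 7, 14.5 and 18.6 in the controls and 23.8, 25.2, 19.3 and 22.9 with anti-PD1. It was 15.4, 20.9, 17.8 and 20.4 with vorinostat and 21, 21.2, 21.3 and 10.1 in the combination. All 4 anti-PD1 libraries stayed above all 3 controls, at 22.8 ± 2.5 (SD, n = 4) against 13.4 ± 5.88 (SD, n = 3), and the nearest values were 19.3 and 18.6. Thinning covered the members alone, most of which met the rule only through anti-PD1 or combination libraries, and equal depth does not remove that choice. Segments outside the members held 13.9, 1.57 and 16.0% of the level of all listed V segments in the controls and 2.53, 19.7, 3.40 and 5.68% with anti-PD1.

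At 472 reads, which 12 libraries reached, control library 2 showed 34.1 segments. Anti-PD1 libraries showed 67, 84.4, 54.3 and 56.1, vorinostat libraries 30, 51, 40.1 and 51.7, and combination libraries 1 to 3 showed 66.8, 64.8 and 58.7. At equal depth, and over the members only, these 3 combination libraries thus lay within the anti-PD1 range and all 7 lay above every vorinostat library. The most abundant segment took 23.4, 32.2 and 13.2% of the V level in the controls and 6.67, 5.53, 13.2 and 5.21% with anti-PD1. Its share was 13.3, 13.6, 16.5 and 8.7% with vorinostat and 9.17, 11.3, 8.93 and 43% in the combination, where the last value is Igkv12-46 in library 4, at 6.67 TPM.

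**Figure D4:**
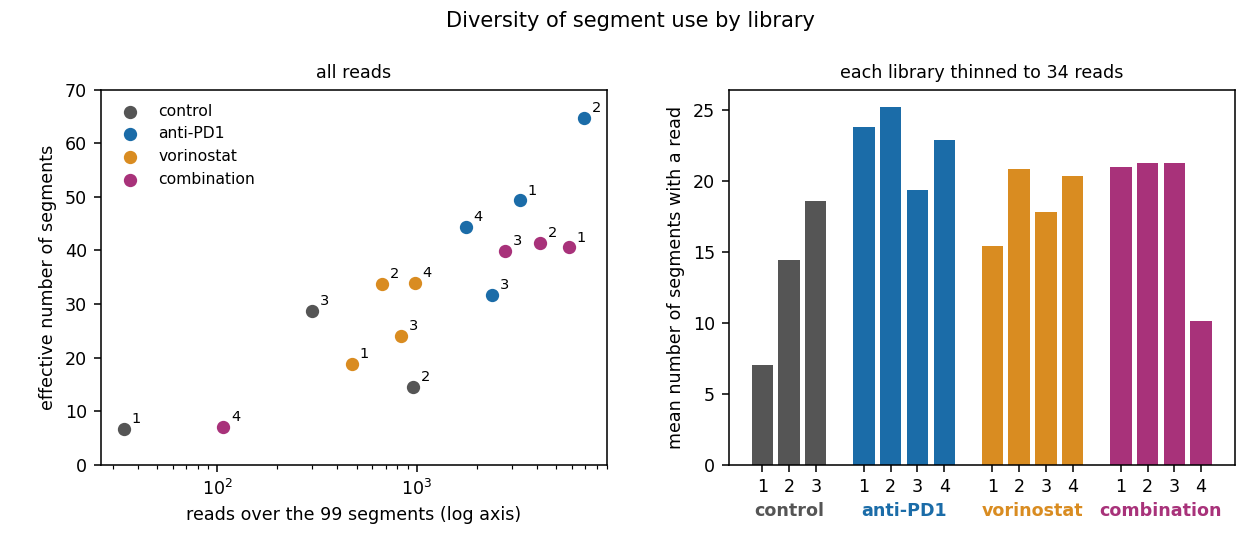
Left, effective number of segments against the number of reads over the 99 segments (log axis), 1 point per library labelled with its replicate number. Right, mean number of the 99 segments with a read after each library was thinned to 34 reads. The low points are control library 1 (6.74) and combination library 4 (7.06), and after thinning the 4 anti-PD1 bars (19.3 to 25.2) stay above the 3 control bars (7 to 18.6).

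The leading segments differed from library to library. Igkv10-96 had the highest mean over all libraries, 16.6 TPM, and was at 0, 24.2 and 2.5 TPM in the controls, 20.9, 59.6, 10.5 and 5.67 with anti-PD1, 1.35, 2.65, 0.29 and 7.4 with vorinostat and 15.8, 86.7, 11.9 and 0 TPM in the combination. It led anti-PD1 library 2 and combination library 2. Igkv3-2, the second by mean, led anti-PD1 library 3 and combination library 3 and was at 0 in anti-PD1 library 1. Igkv3-7 was at 46.5 TPM in control library 2, where it led, and at 45.8, 61.8, 0.258 and 0 TPM in the combination.

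Igkv5-43 led control library 1 and combination library 1, at 1.26 and 74.7 TPM. Igkv3-12 and Igkv9-120, the other kappa segments among the 5 highest by mean, were highest in combination library 1 too, at 70.2 and 54.6 TPM. Anti-PD1 library 1 was led by Ighv8-5, a heavy chain segment, and anti-PD1 library 4 by Igkv6-15 at 15.3 TPM. Vorinostat libraries 1 to 4 were led by Igkv12-46, Igkv19-93, Igkv6-32 and Igkv12-46. Their levels were 8.19, 14, 18 and 11.7 TPM, all below the leading level of any anti-PD1 library except library 4.

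Among heavy chain segments, Ighv14-2 was highest by mean, at 27.9, 29.1, 0 and 2.45 TPM with anti-PD1 and 53, 0, 0.18 and 0 TPM in the combination, and at 13.3 TPM in vorinostat library 3. Ighv1-74 was at 0, 8.96, 0.982 and 6.7 TPM with anti-PD1 and 19.3, 13.4, 23.1 and 0 TPM in the combination. With Ighv8-5, Ighv1-26 and Ighv1-72 these were the 5 highest, and all 5 were at 0 in all 3 controls.

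**Figure D5:**
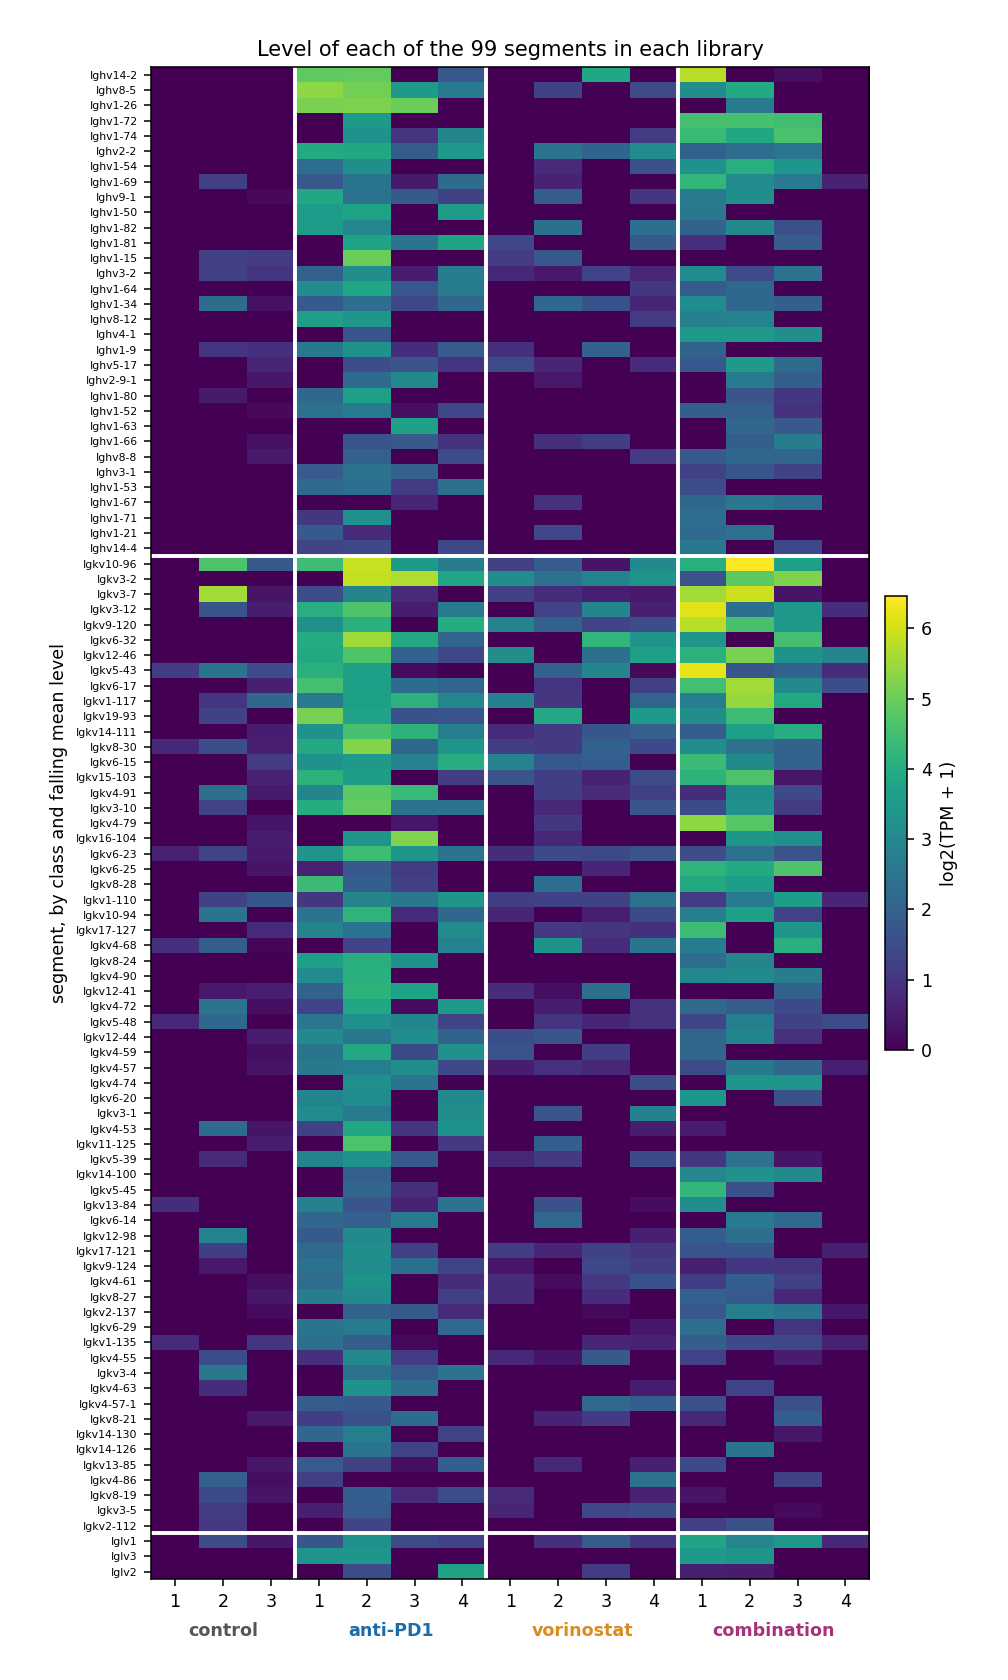
Level of each of the 99 segments in each library as log2(TPM + 1), ordered by class (heavy, kappa, lambda) and falling mean level, with columns by group and replicate number. Anti-PD1 libraries and combination libraries 1 to 3 hold most of the light squares, and segments at high level differ between libraries of the same group.

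Few segments were shared by all libraries of a group. At 1 TPM or more, 1 of 99 segments (Igkv5-43) was in every control, 24 in every anti-PD1 library, 4 in every vorinostat library and 3 in every combination library. In any library of the group they numbered 30, 97, 61 and 90. No segment reached 1 TPM in all 15 libraries, and the widest was Igkv1-110, in 13, with 0, 1.38 and 2.33 TPM in the controls and 1.07, 6.61, 4.89 and 9.65 TPM with anti-PD1. Libraries of a group shared, as the summed smaller of their TPM shares over the 99 segments, 33.1 to 63.7% between pairs with anti-PD1, 27.7 to 48.9% with vorinostat, 16.6 to 52% in the combination and 9.83 to 28.9% in the controls. Between anti-PD1 and combination libraries it was 8.82 to 49.9%. Control library 1 had reads on 7 members and combination library 4 on 12, which limits the counts and shares of their groups. As 77 of the 99 met the rule only with anti-PD1 or combination libraries counted, the groups do not stand on equal terms here.

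At the edge of the rule stood Ighv1-71, Igkv11-125 and Igkv4-79, for which the third highest library held 1.05, 1.1 and 1.04 TPM. Igkv11-125 was at 23.6 TPM in anti-PD1 library 2 and Igkv4-79 at 39.8 and 26.2 TPM in combination libraries 1 and 2. Just outside were Igkv2-109, Ighv4-2 and Ighv14-1, at 0.929, 0.836 and 0.81 TPM in the third highest of their libraries. Of the 74 segments below the rule, 17 reached 1 TPM in 2 libraries, 35 in 1 and 22 in none. They summed to 15.7, 264, 13.3 and 17.6 TPM with anti-PD1 and 0.875, 2.3 and 5.11 TPM in the controls. The highest level of any V segment in any library was among them: Igkv4-80, at 143 TPM in anti-PD1 library 2 and no more than 1.88 TPM in any other.

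By family, Ighv1, the largest mouse heavy chain family, took most of the heavy chain level in most libraries. Its share was 44.8, 62.1, 67.3 and 64% with anti-PD1, 59.7, 59.2, 26.4 and 45% with vorinostat and 50.6, 60.1, 72.6 and 100% in the combination, where the last value rests on 1 segment. The family holds 20 of the 32 heavy chain members (62.5%), and the median share over the 14 libraries with heavy chain reads was 59.9%. Ighv8, with 3 members, took 24.9, 15, 11.7 and 8.8% with anti-PD1 and 7.83, 14.7, 2.99 and 0% in the combination. Ighv14, with 2 members, was at 0, 0, 54.5 and 0% with vorinostat, its highest library being number 3.

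Among kappa families the median shares over 15 libraries were 17.3% for Igkv3 (7 members), 14.1% for Igkv4 (14 members) and 13.1% for Igkv6 (8 members). Igkv3 took 10.7, 17.2, 20.1 and 17.8% with anti-PD1, 17.7, 12.4, 18.8 and 18.9% with vorinostat and 20.7, 17.3, 16.9 and 5.55% in the combination, against 0, 42.3 and 3.23% in the controls. Igkv4 took 9.35, 16.9, 14.1 and 18.4% with anti-PD1 and 7.15, 17, 13.3 and 17.5% with vorinostat. Of 17 kappa families, 14 had shares that overlapped between anti-PD1 and control libraries. In the other 3 every anti-PD1 library lay above every control. Igkv6 took 9.43, 1.14 and 10.8% in the controls and 18.1, 14.1, 13.9 and 18.9% with anti-PD1. Igkv9 took 0, 0.266 and 0% and 3.33, 3.16, 1.38 and 8.25%, and Igkv14 0, 0 and 2.01% and 3.15, 4.84, 6.34 and 3.71%. The controls held 34, 962 and 298 reads over all members, which limits their shares for Igkv9 (2 members) and Igkv14 (4 members). Family shares have no counterpart over all genes to set beside this count. The summed kappa level went from 53.5 ± 69.7 (SD, n = 3) TPM in the controls to 407 ± 244 (SD, n = 4) TPM with anti-PD1.

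By position, the heavy chain segments farthest from the joining segments (1914 to 2551 kb, 12 members, Ighv1-72 among them) held 26.3% of the summed heavy chain level with anti-PD1, 24.2% with vorinostat, 45.5% in the combination and 13.6% in the controls. The nearest (0 to 638 kb, 7 members) held 21.5% with anti-PD1, 43.6% with vorinostat, 28% in the combination and 22.9% in the controls. For kappa the nearest segments (0 to 792 kb, 21 members) held 41.2% with anti-PD1, 38.1% with vorinostat, 38.4% in the combination and 41.9% in the controls. These shares come from sums over libraries and weight the libraries with the highest level most.

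Many V segments are near copies, so reads can be assigned to the wrong relative. Of 97 members with a coding sequence, 52 had a listed segment at 95% identity or more over the V exon and 79 at 90% or more, with a median of 95.6%. Ighv1-71 was identical to Ighv1-62-2, Ighv1-72 was 99.02% identical to Ighv1-62-3, and Ighv1-53 and Ighv1-64 were each 96.1% identical to Ighv1-72. As printed above, the last 60 bases of Ighv1-53 and Ighv1-72 are the same letters. Ighv1-53 was read in all 4 anti-PD1 libraries and in combination library 1 (11 reads), and Ighv1-72 in combination libraries 1 to 3 and in anti-PD1 library 2 (62 reads), so both were read in 2 libraries. Igkv6-17 and Igkv6-25 were 95.6% identical. Igkv3-10 had the closest relative among the 12, Igkv3-5, at 98.1%, and values for such segments are less certain.

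The pair Igkv5-43 and Igkv5-45 shows how little can separate members. Their V exons, at chr6:69823355-69823652 and chr6:69775750-69776047 (minus strand), differ at 3 of 298 bases, in capitals.
Igkv5-43: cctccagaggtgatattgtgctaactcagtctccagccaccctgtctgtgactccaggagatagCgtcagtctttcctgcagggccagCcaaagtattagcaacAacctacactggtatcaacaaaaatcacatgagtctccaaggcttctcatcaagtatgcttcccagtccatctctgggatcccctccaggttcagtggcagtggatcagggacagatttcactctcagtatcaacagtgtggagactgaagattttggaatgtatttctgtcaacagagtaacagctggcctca
Igkv5-45: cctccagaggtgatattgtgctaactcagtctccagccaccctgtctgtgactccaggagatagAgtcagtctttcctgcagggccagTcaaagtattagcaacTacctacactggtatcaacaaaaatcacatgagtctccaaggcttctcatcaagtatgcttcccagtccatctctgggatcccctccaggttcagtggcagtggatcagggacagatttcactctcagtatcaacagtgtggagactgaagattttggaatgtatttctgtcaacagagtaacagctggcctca
In combination library 1 they were at 74.7 and 18.2 TPM, in anti-PD1 library 2 at 11.9 and 3.4 TPM, and in anti-PD1 library 1 at 16.1 and 0 TPM.

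The constant genes, which are spliced to the joined V segment, were highest in many of the libraries with the highest V level. Igkc, the kappa constant gene, was at 16.8, 178 and 37.1 TPM in the controls and 435, 908, 193 and 289 TPM with anti-PD1. It was at 65.5, 101, 116 and 74 TPM with vorinostat and 942, 913, 249 and 25.5 TPM in the combination. The highest 3 were anti-PD1 library 2 and combination libraries 1 and 2, as for the summed V level, and combination library 4 lay among the controls. Its change with anti-PD1 was 2.97 (SE 1.07, adjusted p = 0.0877) by limma, which did not pass. Of 11 constant genes tested, 1 rose with anti-PD1, Iglc2, a lambda constant gene, at 0.0951, 0.339 and 0.16 TPM in the controls and 0.902, 3.06, 1.3 and 1.57 TPM with anti-PD1 and with 1.12 (SE 0.27, adjusted p = 0.0407) by limma.

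Among heavy chain constant genes, Ighm, the IgM gene, was at 13.3, 27.7 and 18 TPM in the controls and 16.6, 46.4, 32.6 and 38.8 TPM with anti-PD1. Ighg1, an IgG gene, was at 0.457, 9.82 and 0.651 TPM in the controls and 27.6, 39.7, 2.8 and 16.1 TPM with anti-PD1. In the combination Ighg1 was at 104, 46.6, 9.1 and 1.14 TPM, and Igha, the IgA gene, at 14.1, 17.4, 10.1 and 1.06 TPM. Neither passed in any comparison. Of 12 joining segments, 2 rose with anti-PD1. Ighj2 was at 1.86, 0.83 and 1.56 TPM in the controls and 12.1, 29.9, 7.65 and 8.78 TPM with anti-PD1, with 2.52 (SE 0.66, adjusted p = 0.0479) by limma. Igkj5 was at 0, 0 and 3.72 and 124, 117, 48.6 and 10.5 TPM, and joining segments are so short that few reads make a high TPM.

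Markers of B cells were at low levels. All 10 B cell genes had a mean under 1 TPM, and Ms4a1, which encodes CD20, was at most 0.107 TPM in any library. Of these 10, 2 were tested (Cd79b and Cd22) and 0 passed in any comparison. The summed level of the 10 was 1.43 to 3.08 TPM in the controls, 2.05 to 2.81 with anti-PD1, 1.8 to 2.2 with vorinostat and 1.44 to 3.44 TPM in the combination. Their mean log2(TPM + 1) in the combination was 0.29, 0.34, 0.27 and 0.17, lowest in library 4, as was the V level, against 0.17, 0.31 and 0.24 in the controls. Of 10 plasma cell genes, 7 were tested and 0 passed. Their mean log2(TPM + 1) was 1.69, 1.96 and 1.90 in the controls, 1.89, 2.00, 1.95 and 1.86 with anti-PD1, 1.91, 1.85, 2.01 and 1.91 with vorinostat and 2.25, 2.33, 2.22 and 1.97 in the combination, where every library lay above every control. Jchain, which joins IgM and IgA subunits, was highest in the 3 libraries with the highest V level. It was at 1.04, 4.09 and 1.02 TPM in the controls, 7.46, 18.9, 3.24 and 4.9 with anti-PD1, 2.61, 1.95, 2.05 and 2.36 with vorinostat and 13.9, 17.3, 2.92 and 0.777 TPM in the combination. Mzb1, a folding factor for antibody chains, was at 0, 0.158 and 0.322 TPM in the controls and 2.21, 2.39, 0.445 and 1.13 TPM with anti-PD1. Over the 7 plasma cell genes tested the median fitted change with anti-PD1 was -0.093, so Jchain and Mzb1 do not stand for the list. Xbp1, the most abundant of that list, is expressed by many cell types and stayed between 129 and 245 TPM.

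Genes of antibody recombination, switching and germinal centres were tested for 3 of 9, and 0 passed. Of 4 precursor B cell genes, Vpreb1 reached 1.77 TPM at most and none was tested. For comparison, T cell receptor V segments, the matching segments of T cells, numbered 90 in the table with 9 tested, of which 1 rose and 1 fell with anti-PD1, and their sum over the 90 was 16.5 to 35.8 TPM in the controls and 27.6 to 76.3 TPM with anti-PD1.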

How the data were processed

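The authors deposited TPM values, in 1 table of 38172 symbols by 15 libraries. Per the labels' protocols the libraries were made from total RNA with an NEBNext Ultra kit, which does not mark strand. The tools named by the submitters' processing notes are HISAT2, StringTie, FastQC and DESeq2, the build is mm10, and versions are not given in the sources used here. Of 36477 symbols matched to GENCODE vM21 (95.6%), 36068 gave whole reads in every library when TPM was scaled by gene span, introns included (tolerance 0.02 reads), as did all 173 V segments. V segment spans therefore include the leader intron.

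Tests used limma 3.58.1 (R 4.3.3, eBayes with a trend) on log2(TPM + 1), so fold changes are on the log2(value + pseudocount) scale and understate low genes. All 15 libraries entered 1 fit with 1 mean per group, over the 19390 genes that reached 1 TPM in 3 or more libraries, with Benjamini-Hochberg adjustment at 0.05. The method was also run on simulated independent normal values. These lack the many zeros of the V segments, so that run does not bear on how reliable the segment calls are. Sums and diversity used Python 3.11.15 and have no test. Reads are not unique molecules, so floors and thinning cover counting error only.

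The members and lists were chosen with earlier results of these data known. Named segments are the 5 highest by mean of each class, the leading segment of each library, up to 10 called per direction and comparison (otherwise the 3 of smallest p), the 3 in most and in fewest libraries, and the 3 on each side of the rule. Other segments named with a count of 5 or fewer, or as called, were chosen after their values were seen.

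Replicate numbers were compared through deviations from group means. For anti-PD1 and the combination the same-number correlations were 0.203, 0.638, 0.426 and 0.29, all over 0.1, so the numbers were taken as pairs there. This pairing comes from the data, and the labels do not say what a number means. Libraries of different number were not correlated, so these values cannot show a pairing. In every other pair of groups at least 1 correlation was under 0.1. The replicate block was nevertheless fitted over all 15 libraries, so it also tied libraries of the same number in those groups. Calls made with the block, in any comparison, therefore rest on a pairing that the correlations do not show. Alternatives were other scaling, pseudocount, filters, a replicate block, fewer groups in the fit, voom on recovered reads, other segment sets and diversity measures, and leaving out each library.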

Additional observations from a re-analysis of the deposited data

Results flagged for a closer look

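Combination library 4 stood apart from the other 3 combination libraries in 2 measures of segment use. Its effective number of segments was 7.06 against a nearest value of 39.9, and its leading segment, Igkv12-46, took 43% of the V level against a nearest value of 11.3%. Its V reads numbered 107.

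For single segments on the log2(TPM + 1) scale, 1 library lay far from the others of its group in 4 further cases. Ighv1-53 was at 1.12 in anti-PD1 library 3, below a nearest value of 2.22, and at 1.52 in combination library 1, where the others were at 0. Ighv1-64 was at 1.04 in vorinostat library 4 and Igkv4-59 at 2.19 in combination library 1, with the other 3 libraries of the group at 0 in both cases. These 6 came from 57 groups examined, some of them at 0 in every library, where no library can stand apart. Where the other 3 libraries are at 0, any value above 0 is set apart by construction. No chance rate can therefore be given for the 6.

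Outside the members, Igkv4-80 was at 143 TPM in anti-PD1 library 2, against at most 0.299 TPM in a control, and it failed the rule of 3 libraries. The same library held Ighv9-3 at 28.1 TPM, also outside the members, and its segments below the rule summed to 264 TPM, 19.7% of the level of all listed V segments there.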

How the results depend on the processing

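Called segments for anti-PD1 against control numbered 12, and 12 also with median-of-ratios scaling (the same 12), which moved the median change of all genes from -0.14 to -0.01. Genes called higher went from 344 to 502 with that scaling. A pseudocount of 0.1 gave 10 segments (8 shared with the 12), beside 305 genes called higher. With only these groups fitted they numbered 10 (8 shared), beside 121 genes. Voom gave 6 (6 shared), beside 369 of 18985 genes, and no filter gave 5 (5 shared), beside 110 of 38172. At a mean of at least 5 TPM, 19 segments were tested and 6 passed (3 shared), beside 320 of 11296 genes. The replicate block gave 27 (all 12 among them), while genes called higher went from 344 to 803. The neuron mean as covariate gave 0, beside 9 genes called higher. The averaged effect gave 2, and 17 with the block (genes called higher went from 46 to 285). It gave 1 at a mean of at least 5 TPM, beside 28 of 11296 genes called higher, and 0 with no filter, voom or the neuron covariate. The replicate block gave 1 for combination against control (Igkv4-57) and 1 for combination against anti-PD1, the groups fitted alone gave 1 for vorinostat, and the block changed no call of the interaction or of vorinostat. Leaving out 1 library gave 0 to 29 for anti-PD1, 0 to 23 for the averaged effect, 0 to 5 for combination against control, 0 to 7 for combination against anti-PD1, and 0 for vorinostat and the interaction. The effective number differed from control by 30.8 for anti-PD1 (25.1 to 36.9 leaving out 1 library), 7.96 over heavy chain segments only and 9.46 at 34 reads. For vorinostat it was 11 (6.01 to 17), and 0.843 over heavy chain segments. For the combination it was 15.6 (10.6 to 24). Signs turned only for segments that did not pass. Igkv2-112 with anti-PD1 went to 0.028 with median-of-ratios scaling, 0.089 with the block and 0.142 with voom, and ran from -0.37 to 0.34 over the left-out libraries (0.34 without control library 2). Over the left-out libraries Igkv3-7 ran from -1.65 to 1.14 and Igkv4-86 from -0.81 to 0.18 with anti-PD1, and Igkv12-98 from -1.31 to 0.139 with vorinostat, each positive without control library 2. Ighv1-15 in the averaged effect ran from -0.75 (without anti-PD1 library 2) to 0.083 (without anti-PD1 library 1, 3 or 4). Where no construction explains a move, the cause was not tested. The V reads behind a library ranged from 34 in control library 1 and 107 in combination library 4 to 6901 in anti-PD1 library 2, which limits what the lowest can show.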

Other observations

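Genes that draw or sustain B cells were mostly low. Of 10 such genes 6 were tested and 1 rose with anti-PD1, Cxcl13, which attracts B cells, at 0.677, 0.503 and 0.278 TPM in the controls, 2.39, 2.06, 0.929 and 1.88 with anti-PD1, 0.227, 0.212, 0.203 and 0.737 with vorinostat and 0.52, 0.86, 0.696 and 1.2 TPM in the combination. In the combination the highest Cxcl13 level was in library 4, which had the lowest V level of that group. Cxcr5, its receptor, stayed at or below 0.013 TPM in every library, and Ccl21a, another lymphocyte attractant, was at 11.2, 63.8 and 36.1 TPM in the controls and 5.4, 24.6, 20.2 and 15.6 TPM with anti-PD1. Of 7 Fc receptor and antibody uptake genes, 6 were tested and 0 passed in any comparison. Of 12 T cell genes, 5 were tested and 1 rose with anti-PD1, Cd4, at 0.802, 0.718 and 1.04 TPM in the controls and 3.27, 8.52, 2.86 and 6.06 TPM with anti-PD1 and with 1.64 (SE 0.42, adjusted p = 0.0459) by limma.

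Over the 15 libraries, the genes outside the immunoglobulin loci whose log2(TPM + 1) was most alike to the log2 summed V level were Mir208b (Pearson r = 0.900), Dlx6 (0.884), Tmem158 (0.870), Jchain (0.867) and Bcl9l (0.855). Dlx6, a homeobox gene of forebrain neurons, was at 3.02, 7.8 and 5.88 TPM in the controls and 20.4, 34.1, 14.2 and 18.3 TPM with anti-PD1. In the combination it was at 17.7, 23.1, 7.04 and 3.13 TPM, with library 4 lowest as in the V level. Tmem158 was at 50.1, 67.5 and 72 TPM in the controls and 133, 208, 131 and 132 TPM with anti-PD1. The libraries share their treatment groups and their differences in tissue makeup, and the correlations are a description with no test. Blood genes, 4 of which were listed, summed to 555 to 6427 TPM in the controls, 1662 to 33105 with anti-PD1, 3088 to 15565 with vorinostat and 2104 to 3065 in the combination, and the highest blood sum among the anti-PD1 libraries was in library 1, while library 2 held the most V segment RNA. The part of blood in the V level was not tested.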
